A study of Mus musculus with 10 samples.

Results

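The regions described here are the 1 kb stretches of the mouse genome whose DNA methylation differed most from one control testis library to the next. The autosomes were divided into consecutive tiles of 1000 bp. A tile was eligible if it held at least 3 covered CpGs (a cytosine followed by a guanine) and at least 100 summed reads in every library. Its level in a library was the share of those reads that were methylated. A tile became a member if its highest and lowest levels among the 5 control libraries lay at least 25 percentage points apart. This gave 3281 member tiles of 130669 eligible tiles (2.51%). The rule used the control levels alone, so the control range, which control library is high, and everything computed from the control reads are given as descriptions. The arsenic levels played no part in the choice.

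The data are reduced representation bisulfite sequencing of testis DNA from F2 mice, a method that enriches CpG-rich restriction fragments and reads unmethylated cytosines as thymines. There were 5 libraries labelled control and 5 labelled arsenic. The labels give no strain, age, dose, route or time of exposure, and do not say which ancestor was exposed. Nothing in them says that each library comes from its own animal. A p-value therefore measures the spread among these libraries, part of which can be technical.

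Methylation of CpGs is copied at cell division by the maintenance methyltransferase Dnmt1, is high over most of the mammalian genome, and is mostly absent from the CpG-rich islands at gene starts. In the male germ line it is erased and set again before birth, and in a whole testis the DNA of germ cells is mixed with that of Sertoli, Leydig, peritubular, vascular and immune cells. A level in such bulk DNA is a share of reads, so a few cells of a type that is fully methylated and many cells with some methylated copies cannot be told apart.

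The sequences shown lie just upstream of RefSeq starts of genes, inside or beside member tiles. In the member tiles at Foxp1, Atg2a, Zfpm1 and Trp53bp2, 1 of the control libraries alone was clearly methylated. The following 250 bases end at the base before a RefSeq start of the gene, which at Foxp1 lies inside the gene. They are read 5′ to 3′ on the gene's strand, from RefSeq on GRCm38.p6, the assembly behind mm10. Capitals mark CpGs that were covered in all 10 libraries. They were chosen after the values were seen, as the 5 start windows with at least 3 covered CpGs and the widest control range, leaving out predicted genes, together with the start of Trp53bp2, which lies beside a pair of adjoining members.
Ddx19b: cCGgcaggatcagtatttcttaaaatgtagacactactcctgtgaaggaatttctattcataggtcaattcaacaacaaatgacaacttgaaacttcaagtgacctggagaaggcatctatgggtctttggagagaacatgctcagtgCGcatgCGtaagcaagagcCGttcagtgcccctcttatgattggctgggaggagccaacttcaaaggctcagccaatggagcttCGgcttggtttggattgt
Foxp1: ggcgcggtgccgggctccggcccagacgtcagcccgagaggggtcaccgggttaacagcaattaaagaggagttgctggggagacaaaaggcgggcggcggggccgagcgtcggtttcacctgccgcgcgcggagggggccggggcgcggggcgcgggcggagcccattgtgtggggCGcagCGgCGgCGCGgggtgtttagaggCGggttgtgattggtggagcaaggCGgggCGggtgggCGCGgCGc
Dio3: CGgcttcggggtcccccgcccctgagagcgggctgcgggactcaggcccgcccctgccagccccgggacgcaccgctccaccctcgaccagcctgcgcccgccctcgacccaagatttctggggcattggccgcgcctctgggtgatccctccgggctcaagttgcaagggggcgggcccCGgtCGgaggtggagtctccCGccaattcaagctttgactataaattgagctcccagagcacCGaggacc
Atg2a: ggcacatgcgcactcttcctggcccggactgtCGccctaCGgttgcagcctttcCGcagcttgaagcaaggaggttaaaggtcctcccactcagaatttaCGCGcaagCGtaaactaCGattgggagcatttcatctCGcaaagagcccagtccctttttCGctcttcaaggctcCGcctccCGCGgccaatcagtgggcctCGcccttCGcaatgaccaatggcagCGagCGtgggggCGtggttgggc
Zfpm1: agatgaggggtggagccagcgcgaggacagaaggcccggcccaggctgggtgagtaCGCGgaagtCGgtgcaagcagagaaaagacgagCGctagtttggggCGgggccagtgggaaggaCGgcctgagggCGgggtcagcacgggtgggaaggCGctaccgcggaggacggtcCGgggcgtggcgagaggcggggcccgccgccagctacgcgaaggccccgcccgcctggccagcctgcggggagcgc
Trp53bp2: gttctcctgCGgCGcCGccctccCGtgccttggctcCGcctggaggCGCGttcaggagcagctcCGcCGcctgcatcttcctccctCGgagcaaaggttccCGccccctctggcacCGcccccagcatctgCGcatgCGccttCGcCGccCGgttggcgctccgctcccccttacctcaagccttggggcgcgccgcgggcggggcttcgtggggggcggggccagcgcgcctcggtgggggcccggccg
In the same order they lie at chr8:111031752-111032001 (- strand), chr6:99028299-99028548 (- strand), chr12:110278980-110279229 (+ strand), chr19:6241418-6241667 (+ strand), chr8:122281891-122282140 (+ strand) and chr1:182408917-182409166 (+ strand). The Ddx19b stretch holds 5 CpGs, all covered, and the Atg2a stretch 19, of which 17 were covered. The Foxp1 stretch holds 34 CpGs, and the 11 covered ones lie close to the start. The stretches of Dio3, Zfpm1 and Trp53bp2 hold 21, 28 and 31 CpGs, with 5, 9 and 17 of them covered. The CpGs in lower case have no value here. The levels below are those of the member tile, which holds all covered CpGs of the Ddx19b, Foxp1, Atg2a and Trp53bp2 stretches, but 4 of the 9 at Zfpm1 and 1 of the 5 at Dio3.

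Foxp1 is a forkhead transcription factor gene, and the start shown lies inside it, more than 1 kb from either gene end. The level there was 0%, 0.853%, 0%, 49.7% and 0% in control libraries 1 to 5. The 5 arsenic libraries gave 0.714%, 0.704%, 0%, 0.672% and 0.338%. Control 4 alone was methylated, at nearly the same level at most of the 20 covered CpGs of the tile, whose lowest and highest in that library were 8% and 74.2%. No cytosine of this tile exceeded 15.4% in any of the other 9 libraries. The reads here numbered about 32 per cytosine in control 4, with a median of 16 methylated.

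At the start of Atg2a, an autophagy gene, control 5 stood at 47.1%, while controls 1 to 4 gave 0.693%, 1.69%, 0.847% and 1.53%. The arsenic libraries gave 4.15%, 0%, 3.86%, 2.86% and 0%. Both strands of the DNA were covered, and each of the 23 cytosines had a level between 36.4% and 55.8% in control 5. Upstream of Trp53bp2, which encodes a p53-binding protein of the ASPP family, control 5 stood at 45.5% in one tile and 43.4% in the next. The other 4 controls lay between 0% and 4.01% in the first and between 0% and 4.85% in the second, and the arsenic libraries reached at most 11.7% and 12.4%. The CpGs of these adjoining tiles lie on 1 strand close to the tile boundary and had nearly the same coverage, so reads can be shared between them.

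The tile at the start of Zfpm1 (Fog1, a cofactor of GATA factors) had 46.3% in control 5 and at most 1.24% in the other controls. Arsenic 5 had 14.4% there and the other arsenic libraries at most 1.31%. At Dio3, the imprinted gene for a deiodinase that inactivates thyroid hormone, control 4 had 47.5% against 0.837%, 6.56%, 14.3% and 11.2% in controls 1, 2, 3 and 5. The arsenic levels there were 7.36%, 10.4%, 6.17%, 22.4% and 10.3%. The tile shared by the ends of Aars and Ddx19b, an alanyl-tRNA synthetase and an RNA helicase, was spread out instead, with controls at 6.72%, 53.1%, 19.05%, 1.85% and 20.9%. Its arsenic libraries gave 26.3%, 12.6%, 28.1%, 13.4% and 23.7%, all inside the control range.

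**Figure D1:**
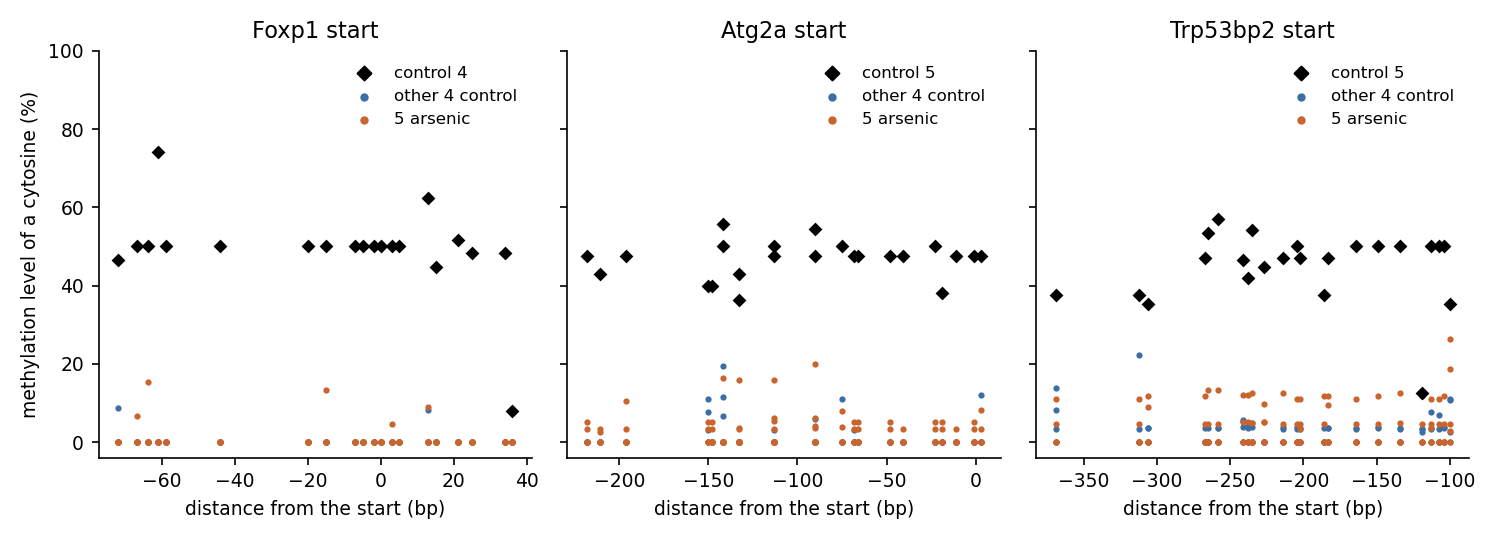
Methylation level (%) of each covered cytosine against its distance from the RefSeq start (bp) in the member tiles of Foxp1, Atg2a and Trp53bp2 (both tiles). Black diamonds are the control library that stood apart (control 4 at Foxp1, control 5 at the other 2 genes), blue points the other 4 control libraries and orange points the 5 arsenic libraries; the diamonds lie mostly between 35% and 60%, above the points, which stay at or below 26.3%.

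This shape was found at few members. In 109 members, 1 control library had 25% or more while the other 4 were under 10%. In 60 of the 109, all 5 arsenic libraries were under 10% as well. The high library was control 5 in 37 of the 60 tiles, control 4 in 18, control 1 in 3, and controls 2 and 3 in 1 each. Of the 60, 41 (68.3%) lay within 1 kb of a protein-coding gene end and 33 overlapped a RefSeq start window, the 250 bases before and 50 after a start. Of all eligible tiles with an arsenic mean under 10%, 66.9% lay at gene ends and 44.1% overlapped a start window. Controls 4 and 5 were among the 3 control libraries with the lowest coverage summed over all listed cytosines. The sums were 69771871 and 76241680, against 74146348 in control 2, 87337133 in control 3 and 92434984 in control 1. They count a read once for each cytosine it covers. Whether depth has a part in which library is high was not tested. The opposite shape, 1 control at 75% or less with the other 4 over 90%, was found in 15 members, and in 4 of these all 5 arsenic libraries were over 90%.

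Across all members the libraries took turns. Control libraries 1 to 5 were the highest control in 403, 584, 627, 761 and 906 members, and the lowest in 666, 678, 580, 632 and 725. Control 5 was thus most often at either extreme. Among all eligible tiles it was also the most frequent highest control (27.0%, against 27.6% of the members), followed by control 4 (22.6%, against 23.2%). As the lowest control, library 5 was the most frequent among the members (22.1%) and the least frequent among all eligible tiles (17.8%), where control 2 was lowest most often (23.5%, against 20.7% of the members). Among the arsenic libraries, arsenic 5 was the most frequent highest library (844 members, 25.7%, against 24.5% of the eligible tiles) and arsenic 1 the most frequent lowest (831 members, 25.3%, against 19.6%). The arsenic libraries had more reads on average: over the member tiles, the median reads per cytosine were 28 to 37 in the control libraries and 36 to 41.1 in the arsenic libraries. The levels of any 2 libraries correlated across eligible tiles with Pearson's r between 0.982 and 0.988, a description across tiles that share libraries and depth.

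Most members only just met the threshold. The control range was 25 to 30 points in 1954 members, 30 to 40 in 1120, 40 to 50 in 164 and 50 or more in 43. Beside the threshold, the Epc2 tile on chromosome 2 was just inside, with controls at 0%, 2.01%, 1.83%, 0% and 25%. The Ddx6 tile on chromosome 9, with controls at 51.3%, 53.5%, 39.1%, 42.6% and 28.5%, was just outside. A single library far from the other 4 (by Dixon's 95% criterion) was found above them in 205 members (6.25%) and below them in 131 (3.99%). Such a criterion flags some groups by chance, and the choice by control range bears on both counts. They were not taken over all eligible tiles, so no trait of the members is read from them. In the remaining 2945 members the 5 controls formed no such gap.

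The tile with the widest control range lay on chromosome 4 (148742001 to 148743000 in mm10), 61366 bp from Casz1, a zinc finger transcription factor gene. Controls 1 to 5 gave 0.862%, 10.9%, 0%, 79.8% and 0%. The arsenic libraries gave 0%, 0.613%, 0%, 0% and 1.05%. Control 4 was the only library above 10.9%, and it was high at each of the 14 CpGs, with levels of 66.7% to 87.5%. These CpGs lay within a short stretch of 1 strand, with about 17 reads each in control 4, so the same reads carried them.

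The tile at the end of Gm44180, a predicted gene on chromosome 6, had controls at 17.1%, 57.0%, 46.0%, 50.3% and 88.4%. Its arsenic levels were 26.6%, 21.2%, 28.4%, 63.0% and 53.7%, so both groups were spread out and overlapped. Near Nln, the gene of the peptidase neurolysin, controls gave 30.5%, 31.7%, 13.1%, 83.8% and 35.9%. The arsenic libraries there lay at 18.9%, 37.8%, 32.0%, 43.8% and 16.4%, all inside the control range. Near Sall4, the gene of a germ cell and pluripotency factor 31800 bp away, controls gave 67.1%, 73.6%, 49.1%, 34.3% and 8.94%. Its arsenic levels fell into a low set (13.7%, 13.4% and 11.1% in libraries 1, 3 and 4) and a high pair (50.8% and 45.7% in libraries 2 and 5).

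Near Edil3, which encodes an integrin-binding matrix protein, controls gave 45.6%, 36.4%, 44.5%, 72.3% and 12.5%, and the arsenic libraries 50.9%, 47.3%, 28.2%, 42.8% and 49.3%. This tile had the most summed reads of the 10 widest, at least 390 over its 20 CpGs in every library. Per cytosine its lowest library had 19.5 reads, against 19.7 in the Crybb3 tile from 113076001 on chromosome 5, also among the 10. Inside Wif1, an inhibitor of Wnt ligands, controls gave 30.5%, 70.1%, 63.8%, 40.5% and 88.7%, and the arsenic libraries 52.6% to 75.6%. At the end of Actl7b, a testis actin-like gene, controls ran from 4.52% in library 3 to 61.7% in library 2 and the arsenic libraries from 8.89% to 30.2%. In each of these 10 tiles the arsenic range was narrower than the control range, which the choice by control range favours.

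**Figure D2:**
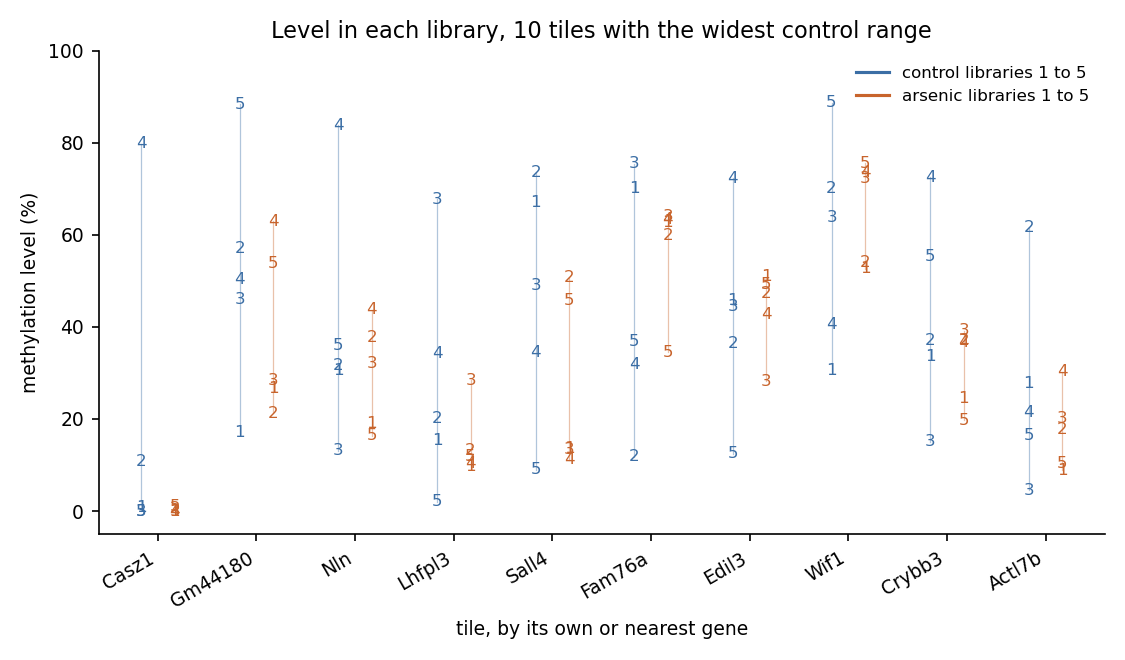
Methylation level (%) in each of the 10 libraries for the 10 tiles with the widest control range, named by their own or nearest gene; digits are library numbers, blue for control and orange for arsenic, and lines join each group's lowest and highest library. The control digits span 57.2 to 79.8 points, and the arsenic digits of the Casz1 tile all lie at or below 1.05%.

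The arsenic libraries were independent of the choice, and in them the members varied more than other tiles. The median arsenic range was 16.3 points in the members (interquartile range 11.5 to 21.9, highest 64.2), against 6.99 in all eligible tiles. An arsenic range of at least 25 points was found in 516 members (15.7%), against 2050 of all eligible tiles (1.57%). These 516 made up 25.2% of the tiles with so wide an arsenic range. The median SD over the 5 arsenic libraries was 6.58 points in members and 2.85 in all eligible tiles. The median arsenic range remained below the median control range of 28.8 points, a difference that the choice by control range favours.

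Part of this difference goes with the level of the tiles. A level near 0% or 100% leaves little room to vary, and 65.6% of the members had an arsenic mean between 20% and 80%, against 20.6% of the eligible tiles. The median arsenic mean was 43.6% in the members and 85.8% in all eligible tiles. Among tiles with an arsenic mean of 20% to 80%, an arsenic range of at least 25 points was found in 450 of 2152 members (20.9%), in 4.75% of the other tiles and in 6.04% of both together. Depth moved with membership too: members had a median of 22.9 reads per cytosine in the lowest library, against 28.6 in all eligible tiles. Where both were matched in part (an arsenic mean of 20% to 80% and at least 30 reads per cytosine), the share was 13.6% of 573 members and 3.24% of all 12716 such tiles. Each tile's reads were also divided by its number of cytosines, because a read over several CpGs is otherwise counted several times. The median dispersion among arsenic libraries relative to binomial counting was then 0.982 in members and 0.489 in all eligible tiles. This divides too far where both strands are covered, since different reads cover them. Tiles covered on 1 strand only made up 30.6% of members and 14.2% of eligible tiles, so the medians are not on an equal footing.

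The share of tiles that were members was highest, at 13.1%, for an arsenic mean of 40% to 50%. It was 0.985% for a mean under 10% and 0.129% for a mean of 90% or more. It was 8.57% among tiles with 10 to 15 reads per cytosine in the lowest library, 4.45% at 15 to 20, 2.60% at 20 to 30, 1.56% at 30 to 50 and 0.379% at 50 or more. The part of counting error in the control ranges was examined with 95% Wilson intervals of the highest and lowest control library. They were apart in all 3281 members when each cytosine's reads were counted separately. The minimum reads and minimum control range set by the rule make this outcome certain, so it does not test counting error. The intervals were apart in 1283 members (39.1%) when reads were divided by the number of cytosines. That division leaves too few reads in tiles covered on both strands. Reads carry no molecular identifiers, so these intervals cover counting error only.

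**Figure D3:**
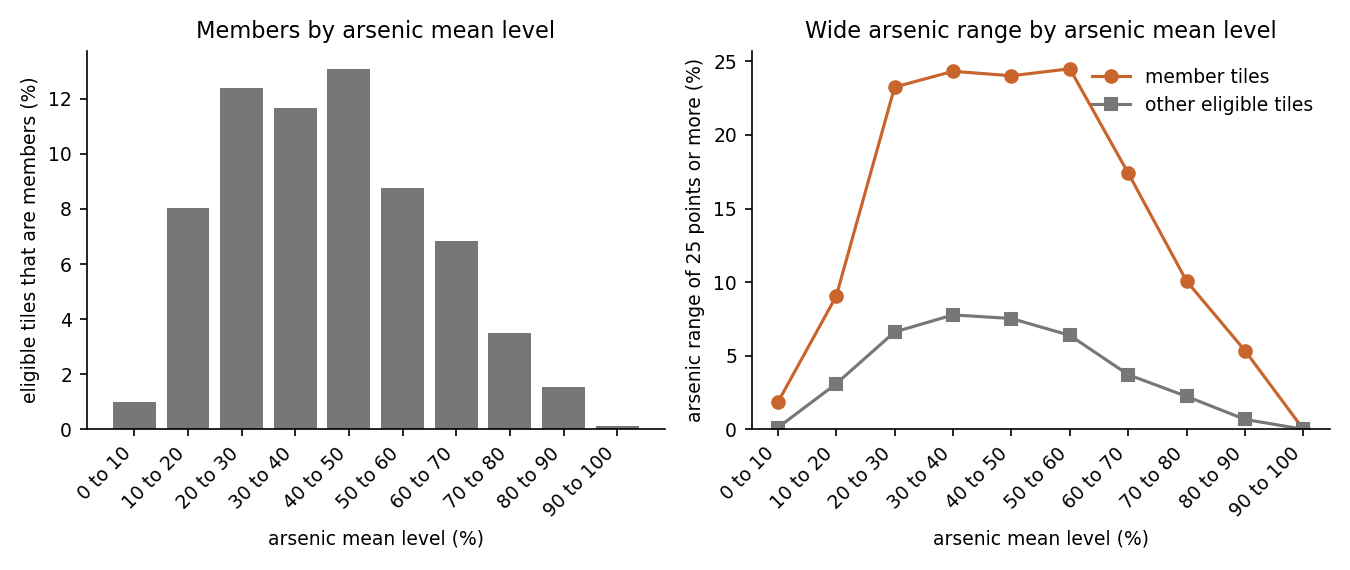
Left, share of eligible tiles that are members (%) by mean level over the arsenic libraries, in classes of 10 points; right, share of tiles with an arsenic range of at least 25 points (%) in the same classes, for members (orange circles) and the other eligible tiles (grey squares). The share of members peaks at 13.1% in the class from 40% to 50%, and in the right panel members lie above the other tiles in each class except the highest, from 90% to 100%, where no member reached 25 points.

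**Figure D4:**
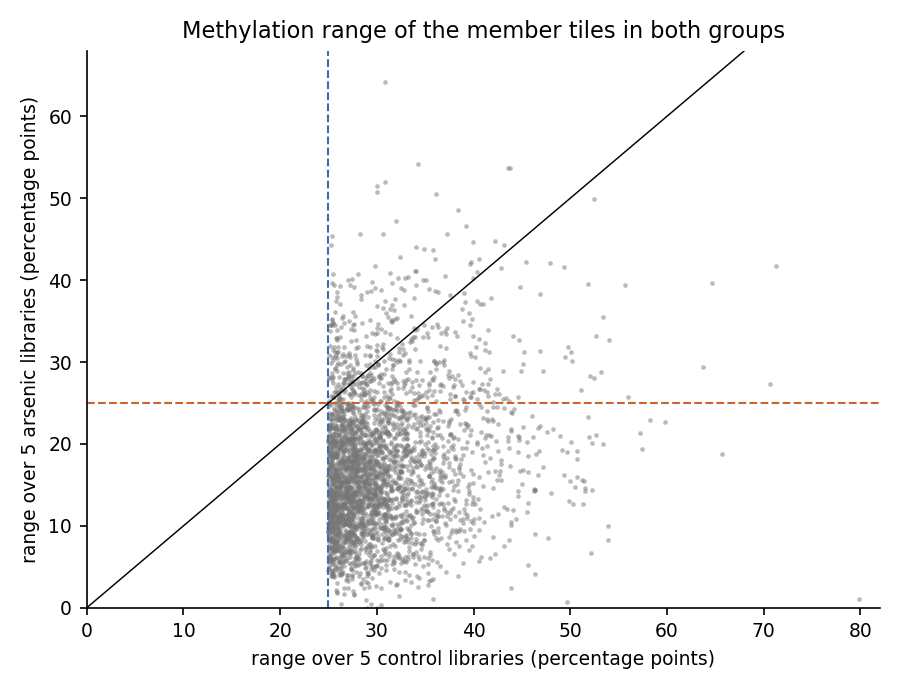
Range of methylation over the 5 arsenic libraries against the range over the 5 control libraries (both in percentage points) for the 3281 member tiles; dashed lines mark 25 points, and the solid line marks equal ranges. 516 points lie on or above the horizontal line, 226 have a wider arsenic than control range, and the cloud starts at the vertical line because the rule put it there.

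The 8 members with the widest arsenic range are the extreme of the variation among arsenic libraries. Their arsenic ranges ran from 50.5 to 64.2 points, against a member median of 16.3. Summed reads in their lowest library ran from 103 (near Aebp2) to 235 (near Dazl), against a member median of 181. In the tile 120529 bp from Aebp2, a gene of a Polycomb cofactor, arsenic libraries 1 to 5 gave 87.6%, 32.0%, 23.4%, 79.3% and 83.2%. Its controls gave 54.5%, 45.9%, 58.4%, 54.2% and 76.7%, so the arsenic libraries formed a set above all 5 controls and a pair below them. Inside Kalrn, arsenic 1 stood at 66.4% and the other arsenic libraries at 12.3%, 26.4%, 16.8% and 16.8%, with controls between 11.5% and 45.8%. Near Drosha, which encodes the nuclease that starts microRNA processing, arsenic 3 stood at 73.1% and control 3 at 66.4%. The other arsenic libraries lay between 19.5% and 27.1% there and the other controls between 22.8% and 44.9%.

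Inside Ptprt, a receptor tyrosine phosphatase gene, arsenic levels ran from 34.6% in library 1 to 86.7% in library 4, and controls from 55.7% to 86.6%. The tile 25393 bp from Dazl, a gene of a germ cell RNA-binding protein, had arsenic levels of 14.9%, 54.5%, 46.2%, 57.7% and 66.4%, with controls between 39.2% and 69.2%. The remaining tiles of the 8 widest lay near Npvf, Zfp169 and 1700129C05Rik, with arsenic ranges of 53.7, 50.8 and 50.5 points. In these 8 tiles the 2 groups overlapped.

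Members lay less often at gene ends and more often between genes than eligible tiles did. Within 1 kb of an end of a protein-coding gene lay 416 members (12.7%), against 17.4% of the eligible tiles. Inside such genes, further than 1 kb from their ends, lay 1158 (35.3%, against 42.6%), and 1707 lay elsewhere (52.0%, against 39.97%). Put the other way, 1.83% of the gene-end tiles, 2.08% of the gene-body tiles and 3.27% of the remaining tiles were members. Level goes with location, and within tiles of an arsenic mean of 20% to 80% the shares were closer: 9.67% of members and 8.94% of eligible tiles were at gene ends, and 57.6% and 58.7% were between genes. By chromosome, the share of eligible tiles that were members ran from 1.96% on chromosome 11 to 3.07% on chromosome 3. Exons, introns and repeat elements are not part of the gene coordinates used here.

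Outside chromosome 18, 233 of 3166 members (7.36%) overlapped a RefSeq start window, against 9.64% of the eligible tiles. Windows with at least 3 covered CpGs numbered 131 in members and 8178 in all eligible tiles. The motif CCGG, the recognition letters of the enzyme commonly used in this method and the same on both strands, occurred in 96.9% of the member windows and in 99.2% of all of them. The member windows held a median of 17 CpGs in their 300 bases, against 23 in all such windows. The Foxp1 window above, with 44 CpGs and 75.3% G and C, was thus richer than most, and the Ddx19b window, with 11 CpGs and 49.7%, was poorer.

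In 2634 members (80.3%) each CpG was higher in the tile's highest control library than in its lowest, which the choice by the range of the summed control reads favours. Without the CpG that lowered the range most, 2120 members (64.6%) kept a range of at least 25 points and 3138 kept at least 20. CpGs of 1 fragment are read on the same reads, and 1003 members (30.6%, against 14.2% of the eligible tiles) were covered on 1 strand only. The members had a median of 6 CpGs, the same as all eligible tiles.

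The strands of a tile are read by different reads. In 1638 members each strand had at least 3 cytosines. For each, the highest and lowest library on the plus strand were taken, and the same pair was read on the minus strand. For the control libraries, the pair had the same direction on the minus strand in 1386 members (84.6%), but the rule chose these tiles on both strands together. For the arsenic libraries, which the rule did not use, the direction was the same in 876 members (53.5%) and opposite in 747. The share over all eligible tiles was 52.6% for the arsenic libraries and 52.7% for the control libraries. Choosing by the arsenic range instead mirrored the picture: in 970 tiles with an arsenic range of at least 25 points, the direction was the same in 85.1% for the arsenic libraries and in 51.3% for the controls. With the same CpGs on both strands, 83.5% of 1364 members had the same direction for the control libraries and 54.7% for the arsenic libraries. Over the 72998 such eligible tiles the shares were 51.9% and 52.3%.

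Between tiles, the pattern did not reach far. Of the members, 3169 stood alone and the others formed 56 pairs of adjoining tiles, with no longer run. Both tiles of a pair had the same highest and the same lowest control library in 19 of the 56 pairs. Of 1151 eligible tiles next to a member, 112 (9.73%) were members, against 2.51% of all eligible tiles. In the other 1039, the member's highest control library was above its lowest in 63.9%, by a median of 2.08 points. For the arsenic libraries, which the rule did not use, the share was 60.3%, by a median of 1.36 points. At 2 tiles away the shares were 51.2% for control and 51.6% for arsenic. At 3, 5, 10 and 20 tiles the control share was 52.0%, 53.4%, 52.7% and 51.4%. Adjoining tiles can hold CpGs of the same reads. At the Crybb3 pair, next to the end of a lens crystallin gene on chromosome 5, the controls gave 32.0%, 39.9%, 23.8%, 68.9% and 50.5% in one tile and 33.7%, 37.1%, 15.1%, 72.5% and 55.2% in the next, with nearly equal coverage in each library.

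**Figure D5:**
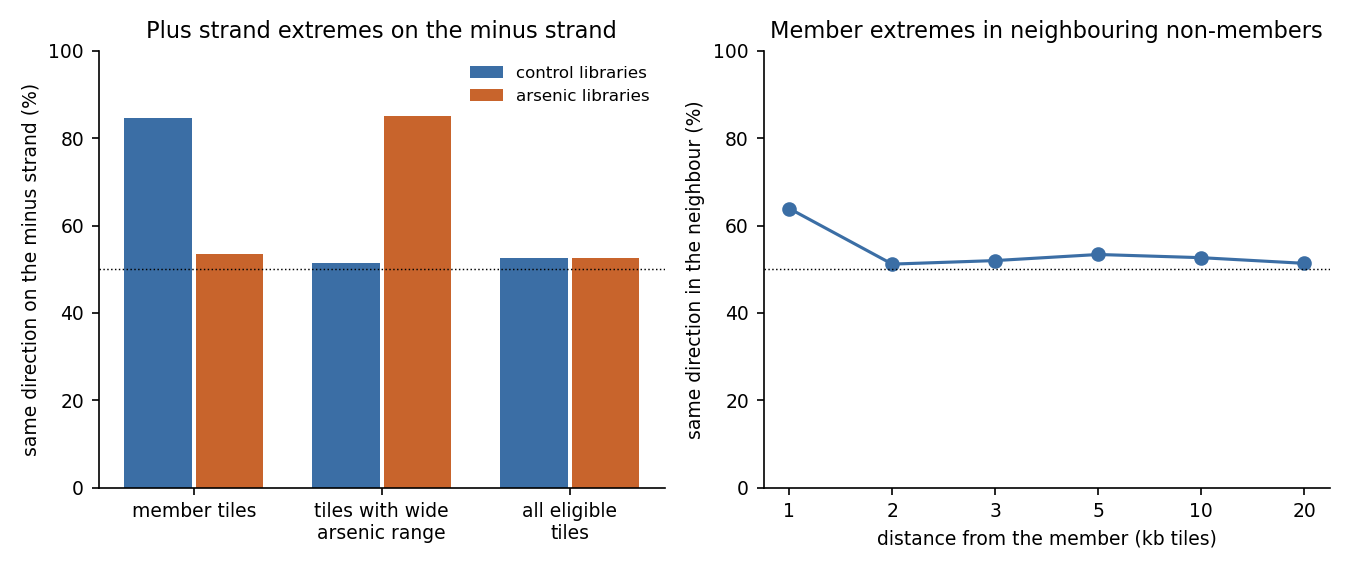
Left, share of tiles (%) in which the highest and lowest library of the plus strand had the same direction on the minus strand, for control (blue) and arsenic (orange) libraries; right, share of eligible non-member tiles (%) in which a member's highest control library was above its lowest, by distance in 1 kb tiles. Dotted lines mark 50%; each group's bar is high only where that group's range chose the tiles (84.6% and 85.1%), and the line falls from 63.9% to 51.2% between 1 and 2 tiles.

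Whether the groups differed was tested on all 165978 tiles with at least 3 CpGs, with a quasi-binomial model of methylated reads, adjusted over all of them by the Benjamini-Hochberg method. A call needed an adjusted p below 0.05 together with 10 points or more between the groups, and no tile met both (0% of all tiles, 0 of 3281 members). At an unadjusted p under 0.05, without a limit on the difference, there were 186 members (5.67%), against 5.8% of all tiles. Of the 186, 36 were higher in arsenic (1.10% of members, against 2.47% of all tiles) and 150 lower (4.57%, against 3.34%). The 218 members with an arsenic mean under 10% gave 51 lower and 0 higher, against 1656 and 691 of 22126 eligible tiles. At 10% to 20% the 453 members gave 48 and 0, against 563 and 74 of 5641. At 80% to 90% the 393 members gave 0 lower and 14 higher, against 621 and 634 of 25477. At 90% or more the 65 members gave 0 and 5, against 836 and 1591 of 50513. A control range of 25 points beside an arsenic mean near 0% or 100% leaves little room for the other direction. The choice by control range bears on this split, and no direction is read from it. The control spread that chose the members enters the error of this test. Limma on log2 ratios called 0 members and 1 of all 165978 tiles. It gave 83 members at an unadjusted p under 0.05, a count that was not taken over all tiles. A binomial test that takes each read as independent, and so ignores how libraries of a group differ, called 275 members (8.38%), against 1.2% of all tiles.

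The member with the smallest p lay inside Arntl2, a clock transcription factor gene, on chromosome 6 (146820001 to 146821000 in mm10). Controls 1 to 5 gave 15.5%, 43.2%, 14.5%, 22.8% and 22.8%, and the arsenic libraries 3.43%, 4.98%, 4.78%, 3.91% and 5.86%. Each arsenic library was below each control. The read-weighted difference was -18.8 points, with p = 1.04e-04 and an adjusted p of 0.637 in the quasi-binomial model. Control 2 was far above the other controls. Without it the difference was -14.3 points.

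At the end of Nolc1, which encodes a nucleolar phosphoprotein, controls gave 12.96%, 42.2%, 25.5%, 14.1% and 21.8% and the arsenic libraries 9.77%, 5.26%, 10.1%, 5.96% and 10.6%. The groups did not overlap and differed by -16.1 points, with an adjusted quasi-binomial p of 0.808. Inside Lrrc2, a leucine-rich repeat gene, all 5 arsenic libraries were at 0%, while controls gave 9.66%, 0%, 4.76%, 7.27% and 29.0%. Control 2 was at 0% as well, so the groups overlapped there. The difference of -10 points had an adjusted quasi-binomial p of 0.808, and it was -5.38 points without control 5.

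Upwards, the smallest p was at a tile 53778 bp from Olfr338, an olfactory receptor gene. Controls gave 19.7%, 47.4%, 33.6%, 32.8% and 32.0% and the arsenic libraries 59.3%, 56.6%, 55.4%, 49.0% and 39.3%, so control 2 lay among the arsenic levels. The difference was 20.4 points, with an adjusted quasi-binomial p of 0.808. Near Syt8, a synaptotagmin gene, the difference was 18.2 points, from controls between 48.7% and 76.9% to arsenic levels of 86.5%, 84.5%, 84.8%, 84.1% and 73.4%. Inside Gramd1a, a gene of a sterol transfer protein, controls lay between 42.5% and 72.8% and the arsenic libraries between 75.4% and 88.8%, without overlap. Its difference was 16.7 points, and 10.9 points without control 4. The tile near Sdk2, a cell adhesion gene, had a difference of 12.3 points. None of these 4 tiles passed the quasi-binomial test, with adjusted p-values of 0.808 or 0.809.

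The groups did not overlap in 6 members (0.183%), against 0.84% of the eligible tiles, a share that the wide control ranges hold down. Besides Arntl2, Nolc1 and Gramd1a these were tiles near Bicc1, Tsc22d2 and Nfkb1, named here after their values were seen. In 1915 members (58.4%) all 5 arsenic levels lay inside the control range, against 26.5% of the eligible tiles, a share that wide ranges raise. The arsenic mean lay outside the control range in 92 members (2.8%), against 13.4% of the eligible tiles, a share that wide ranges lower. Averaged over the members, the level was 46.9% ± 1.04 (SD, n = 5) in the control libraries and 45.6% ± 0.869 (SD, n = 5) in the arsenic libraries, a difference of -1.38 points. Over all eligible tiles the means were 65.8% ± 0.385 and 65.6% ± 0.257 (SD, n = 5 each). Over the 2050 tiles chosen by a wide arsenic range, the arsenic mean was also below the control mean, by -0.986 points. The choice by control levels bears on these averages, and no direction is read from them.

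Few genes of the lists held a member. Imprinted genes are expressed from one parental copy, under control of regions methylated in the germ line of one parent. Their lists held 2 members in 138 eligible tiles for the maternally methylated genes (1.45%) and 0 in 33 for the paternally methylated ones, against 2.51% of all eligible tiles. Dio3, described above, was on neither list. At Plagl1, a zinc finger gene of the first list, controls gave 3.26%, 17.3%, 27.2%, 21.6% and 0% and the arsenic libraries 9.20%, 5.78%, 8.19%, 5.75% and 0%. Inside the Gnas locus, which encodes a G protein subunit, controls gave 6.67%, 0%, 15.5%, 2.05% and 33.7% and the arsenic libraries 0.690%, 8.90%, 24.3%, 14.0% and 15.4%. The genes known for a variably methylated retrotransposon of the IAP family (Axin1, Cdk5rap1 and the agouti gene) held 0 members in 11 eligible tiles.

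Genes of the germ line that are silenced by methylation in other tissues held 3 members in 61 eligible tiles (4.92%). Brdt, a testis bromodomain gene, had controls at 25.5%, 26.4%, 23.8%, 3.20% and 39.1% and arsenic levels at 8.30%, 17.3%, 10.1%, 11.6% and 10.2%. Controls 1, 2, 3 and 5 were above each arsenic library, and control 4 was below them. Asz1, a gene of the piRNA pathway, had controls at 21.1%, 47.1%, 24.2%, 16.8% and 13.6% and arsenic levels between 3.49% and 21.4%. Tex101, the gene of a surface glycoprotein of germ cells that was also on the spermatocyte list, had control 2 at 40.4% and the other controls between 11.98% and 18.97%, with arsenic levels between 7.54% and 19.4%.

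The marker lists of testis cell types held 1 member each for Sertoli cells (Wt1, in 56 eligible tiles), Leydig cells (Lhcgr, in 21) and spermatocytes (Tex101, in 9). These were 1.79%, 4.76% and 11.1% of the tiles, against 2.51% of all eligible tiles. The lists held none for spermatogonia (72 tiles), peritubular and vascular cells (25), macrophages (10) and spermatids (8). With so few tiles per list, no trait of a cell type is read from these counts. At Wt1, a transcription factor of Sertoli cells, controls gave 81.9%, 52.8%, 53.8%, 59.7% and 49.7% and the arsenic libraries 34.8%, 58.2%, 66.5%, 65.7% and 57.2%. Inside Lhcgr, the luteinizing hormone receptor gene, controls gave 5.83%, 21.4%, 18.9%, 35.7% and 22.2% and the arsenic libraries 29.3%, 20.5%, 16.3%, 10.03% and 26.5%. Methylation at marker genes is no count of cells, and a difference in cell makeup between the libraries was not tested.

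Among gene families taken by the start or end of the symbol, the share of eligible tiles that were members was 4.71% for protocadherins (19 of 403), 3.75% for vomeronasal receptors (20 of 533) and 3.52% for olfactory receptors (24 of 681). It was 3.46% for predicted Gm genes, 2.64% for Rik genes, 2.50% for zinc finger Zfp genes and 1.54% for microRNA genes, against 2.51% overall. Other gene ends with a wide control range were those of Hacd1, Trank1, Trim52 and Tdrd7. At Hacd1, a fatty acid elongation gene, controls gave 8.60%, 0.772%, 18.9%, 30.7% and 52.3%, and arsenic levels were at most 1.67% except in library 3, which had 14.6%. At Trank1, controls gave 0%, 0%, 10.1%, 14.9% and 52.1%, and the arsenic libraries 0.400%, 1.54%, 7.04%, 1.12% and 0.705%. Arsenic libraries 1, 2 and 4 were below each control at Hacd1, and all 5 lay inside the control range at Trank1. At Trim52, a tripartite motif gene, control 4 had 63.3%, the other controls lay between 9.89% and 26.7%, and the arsenic libraries between 11.4% and 46.9%. At Tdrd7, a Tudor domain gene of the germ cell granules, control 5 had 64.8%, controls 1 to 4 lay between 13.4% and 32.9%, and the arsenic libraries between 21.3% and 36.8%.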

How the data were processed

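Reduced representation bisulfite libraries of F2 testis DNA (5 control, 5 arsenic, grouped by title) were analysed. Trim Galore 0.6.5, Bismark 0.22.3, methylKit 1.22.0 and the build mm10 are listed in the submitters' processing notes. Per the file headers, the deposited table holds unnormalised counts of all, methylated and unmethylated reads for each cytosine and library. It listed 1988759 cytosines on 1407384 CpGs, each with at least 10 reads in every library. Summed over these cytosines, the coverage of a library ran from 69771871 to 100355708, which counts a read once for each cytosine it covers. The strands of a CpG were listed separately and summed here within tiles of 1000 bp. Locations come from RefSeq gene coordinates on GRCm38.p6, which carry no exons. At RefSeq starts, 98960 of 98968 covered CpGs fell on a CG of the sequence.

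Arsenic and control were compared with a quasi-binomial logistic model (dispersion squeezed across tiles as in limma, floor of 1, F test, Benjamini-Hochberg over all tiles with at least 3 CpGs), checked on simulated data, in Python 3.11.15 (numpy 2.4.6, scipy 1.17.1, pandas 2.3.3) and R 4.3.3 (limma 3.58.1). Tiles named in the text are the 10 with the widest control range, the 8 with the widest arsenic range, for each direction the 4 smallest p, up to 3 runs, up to 12 members at genes of the lists, up to 8 at gene ends, and those beside the threshold; 2 of these tiles are not reported here, some are given by count only, and any others were named after their values were seen. The members, lists and settings were chosen with earlier results of these data known.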

Additional observations from a re-analysis of the deposited data

Results flagged for a closer look

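Among 106 groups of 5 libraries at the named tiles, 22 had 1 library far from the other 4 by Dixon's criterion. Chance flags about 1 in 20 such groups, and the tiles were chosen for a wide range, so control flags follow in part from the choice. Of the 22, 11 were control and 11 arsenic groups.

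Control 4 stood above the other controls near Casz1 (79.8%), at Foxp1 (49.7%) and at Dio3 (47.5%). Control 5 did so at Trank1 (52.1%), Atg2a (47.1%), Zfpm1 (46.3%), Trp53bp2 (45.5% and 43.4%) and Epc2 (25%). Control 2 did so at Arntl2 (43.2%) and Tex101 (40.4%).

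Among the arsenic libraries, arsenic 3 stood apart near Drosha (73.1%) and Lhfpl3 (28.4%), at Hacd1 (14.6%) and at Trank1 (7.04%). Arsenic 5 stood below the others near Fam76a (34.5%), Syt8 (73.4%) and Ddx6 (23.5%) and above them at Zfpm1 (14.4%). Arsenic 1 stood above the others at Kalrn (66.4%) and below them at Klf16 (38.8%), and arsenic 4 above them at Dio3 (22.4%). At Dio3, Trank1 and Zfpm1 both groups held such a library.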

How the results depend on the processing

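The number of members depends on the thresholds by construction. It was 8210, 1327 and 207 at a control range of 20, 30 and 40 points, 5619 and 1448 with at least 50 and 200 reads per library, and 2120 without the CpG that lowers the range most. Without 1 control library each, it ran from 2052 to 2528, the lowest without control 5. The share of members with an arsenic range of at least 25 points was 11.3%, 22.4% and 33.8% at 20, 30 and 40 points, 21.4% and 12.02% with at least 50 and 200 reads, 18.04% with at least 20 reads per cytosine and 19.2% without that CpG. Without 1 arsenic library each it ran from 10.7% to 12.3%, where a range over fewer libraries cannot be wider. Without 1 control library each, which changes the members, it ran from 15.98% to 16.9%. These shares were not taken over all eligible tiles. Among all eligible tiles the share was 2.42% and 0.983% at 50 and 200 reads and 1.87% at 20 reads per cytosine. At least 5 CpGs, tiles shifted by 500 bp and equal weight for each cytosine gave 2452, 3332 and 3623 members, with the share inside its 95% Wilson interval of 14.5% to 17.01%.

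No member was called in 16 of 17 fits, in which the lowest adjusted p was 0.219. The members at an unadjusted p under 0.05 numbered 83 (limma) to 327 (replicate block). Over all tiles that count was taken for the main fit only (5.8%). The binomial test on reads called 275. Replicate numbers did not pair the libraries: correlations of same-numbered libraries ran from -0.0145 to 0.0235, and 2 of 5 libraries correlated best with their own number. With the number as a replicate block, 0 members were called. The mean difference over the members ran from -1.76 to -1.06 points without 1 library each. The differences of the tiles with the smallest p had the same sign in all 123 repeats run on them, and passed the threshold in the 8 with the binomial test. The repeats reuse the counts by which these tiles were picked, and many leave the difference itself unchanged. A kept sign is therefore no independent support. Tiles with 10 to 15 reads per cytosine were members in 8.57%, those with 50 or more in 0.379%; these classes also differ in level and CpG number, and the part of depth was not tested.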
